A study of Mus musculus with 50 samples.

Results

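Chromatin accessibility in ventral hippocampal neurons was compared at 8 weeks of age (TP1) between mice from rearing facilities (RFs) with different light cycles. The 10 libraries of RF1 and RF2, where lights came on in the morning and the light phase was longer than the dark phase (normal light), were set against the 15 libraries of RF3, RF4 and RF5, where lights came on in the evening and both phases were equally long (reverse light). These are 25 of the 50 libraries of the series. The members were chosen by the RF in the sample title, and the light cycle of each RF was read from the housing description of the study. All mice were male C57BL/6JRj mice without a transgene, and they were killed early in their light phase, so the clock time of death differed between the light cycles. ATAC-seq, in which a transposase cuts DNA that is free of nucleosomes, was performed on nuclei sorted for the neuronal protein NeuN. At TP2, at 14 weeks of age, littermates had lived under 1 light cycle in the test laboratory.

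The division by light is also a division by other conditions. RF1 and RF2 belonged to the same institution and used the same autoclaved bedding and water, and they shared their diet supplier with RF4, whereas RF3 and RF5 shared another supplier. Light and these conditions cannot be told apart. Each RF is 1 place with 5 mice, so the RF is the unit to which the light cycle was applied, and tests over RFs (2 against 3) are given beside those over libraries for the counts and for the peaks described in full. Total counts in peaks ranged from 40340957 to 77396321 in the normal-light libraries and from 33663505 to 57801417 in the reverse-light libraries. The mean totals of the RFs did not overlap between the light cycles (exact permutation test over 5 RFs, two-sided p = 0.1, the smallest that 10 arrangements allow). Rbfox3, which encodes NeuN, had 24.9 to 41 CPM (counts scaled to the library's total) at its promoter in normal light and 28.9 to 42.1 CPM in reverse light.

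Light sets the phase of the circadian clock. In each cell, CLOCK and ARNTL (BMAL1) bind E-box sequences and activate the Per and Cry genes, whose proteins block their own activators, and the same activators drive Nr1d1, Nr1d2, Ciart, Bhlhe40, Bhlhe41 and the output factors Dbp, Hlf and Tef. The hippocampus holds such a clock, and its phase follows the light cycle by way of the suprachiasmatic nucleus. The promoters of 4 genes that hold the E-box CACGTG are shown here, chosen after their values were seen: those of the clock repressors Cry1, Ciart and Bhlhe41, whose RF means did not overlap between the light cycles, and that of Sirt1, a deacetylase gene whose promoter was called. The runs are the 250 bases before the start site from RefSeq on GRCm38.p6, all on the minus strand, at chr10:85185055-85185304 (Cry1), chr3:95882229-95882478 (Ciart), chr6:145865421-145865670 (Bhlhe41) and chr10:63339036-63339285 (Sirt1), with the E-boxes in capitals.
Cry1: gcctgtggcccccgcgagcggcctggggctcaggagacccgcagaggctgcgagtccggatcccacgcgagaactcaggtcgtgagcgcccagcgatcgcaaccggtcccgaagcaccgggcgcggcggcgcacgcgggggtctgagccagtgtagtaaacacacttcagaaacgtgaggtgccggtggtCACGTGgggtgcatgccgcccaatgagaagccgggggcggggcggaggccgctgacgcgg
Ciart: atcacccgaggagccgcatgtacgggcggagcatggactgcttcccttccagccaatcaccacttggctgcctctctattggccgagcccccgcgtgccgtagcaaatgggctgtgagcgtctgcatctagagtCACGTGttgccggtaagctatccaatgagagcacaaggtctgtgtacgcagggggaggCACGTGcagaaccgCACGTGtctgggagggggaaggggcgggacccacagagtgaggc
Bhlhe41: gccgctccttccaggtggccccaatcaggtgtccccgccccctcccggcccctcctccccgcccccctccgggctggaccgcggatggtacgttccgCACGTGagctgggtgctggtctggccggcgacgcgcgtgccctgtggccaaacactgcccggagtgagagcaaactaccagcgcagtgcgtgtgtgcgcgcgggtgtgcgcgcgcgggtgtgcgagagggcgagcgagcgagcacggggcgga
Sirt1: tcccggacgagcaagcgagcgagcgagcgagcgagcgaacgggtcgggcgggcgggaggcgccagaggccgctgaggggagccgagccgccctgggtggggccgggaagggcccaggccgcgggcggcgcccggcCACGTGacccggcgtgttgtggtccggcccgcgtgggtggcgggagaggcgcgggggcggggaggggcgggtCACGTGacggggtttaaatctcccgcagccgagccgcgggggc
The E-box was searched on both strands, on which it reads the same. It stood in 9.50% of the 12086 promoters with a peak and a sequence, in 12% of the 367 promoters called higher in normal light and in 9.68% of the 248 called lower. Of the core clock repressors with a sequence, 4 of 8 held it, among them Per1, whose RF means overlapped. It stood in 0 of 5 activators, 0 of 9 modifiers and 2 of 6 output factors, and Hlf and Clock, whose RF means did not overlap, had none.

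A peak was called when its false discovery rate (FDR, Benjamini-Hochberg, edgeR quasi-likelihood test over libraries) was below 0.01 and its log2 fold change, normal minus reverse light, was at least 0.5 in size. Of 144458 peaks, 10859 (7.52%) were called, 6873 higher (4.76%) and 3986 lower (2.76%) in normal light. Without the fold limit, 64795 peaks (44.9%) passed the FDR over libraries and 3753 (2.6%) passed it over RFs. At 10298 of the 10859 called peaks (94.8%), the means of RF1 and RF2 both lay on the same side of all 3 reverse-light RFs. The RF means lay apart in this way at 43.0% of all peaks, called or not. The calls and the RF means come from the same libraries, so the 94.8% follows in part from the calls. With RFs as the units, 3513 peaks were called (2.43%), 2329 higher (1.61%) and 1184 lower (0.82%), of which 3482 were also called over libraries in the same direction. The number called over RFs changed with the RFs used: 4 without RF1, 11393 without RF2, 3608 without RF3, 0 without RF4 and 3798 without RF5. Without RF4, 32615 peaks had an unadjusted p below 0.05, against 39488 with all RFs (edgeR). Leaving out an RF also leaves fewer units for the test, and the part of this was not tested. After the mean of each 1 Mb region was taken out of every library, 2111 peaks were called over libraries (1.46%), 1179 higher (0.816%) and 932 lower (0.645%). Over RFs 0 were called (0% in either direction, edgeR), where 19661 peaks had an unadjusted p below 0.05 and 2 an FDR below 0.05.

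The single pairs of RFs show where the calls came from. RF1 differed from the reverse-light RFs at 28997 (RF3, 20.1%), 29037 (RF4, 20.1%) and 32375 (RF5, 22.4%) peaks. RF2 differed from them at 3126 (RF3, 2.16%), 4017 (RF4, 2.78%) and 8666 (RF5, 6.00%) peaks. Pairs that shared a light cycle differed at 6183 peaks (RF1 over RF2, 4.28%), 2820 (RF3 over RF4, 1.95%), 5775 (RF3 over RF5, 4.00%) and 6291 (RF4 over RF5, 4.35%). The counts of RF2 against RF3 and RF4 thus lay within the range of the pairs that shared a light cycle, and those of RF2 against RF5 and of the 3 pairs with RF1 lay above it. Light cycle took 28.6% of the variation between the 25 libraries (Manhattan distances), of 57.2% taken by RF (49.9% of the RF part). It is 1 of the 4 degrees of freedom between the RFs, so any division of the RFs takes some of that part. Without RF1 its share was 16.4%, of 48.9% taken by RF (33.4% of the RF part).

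**Figure D1:**
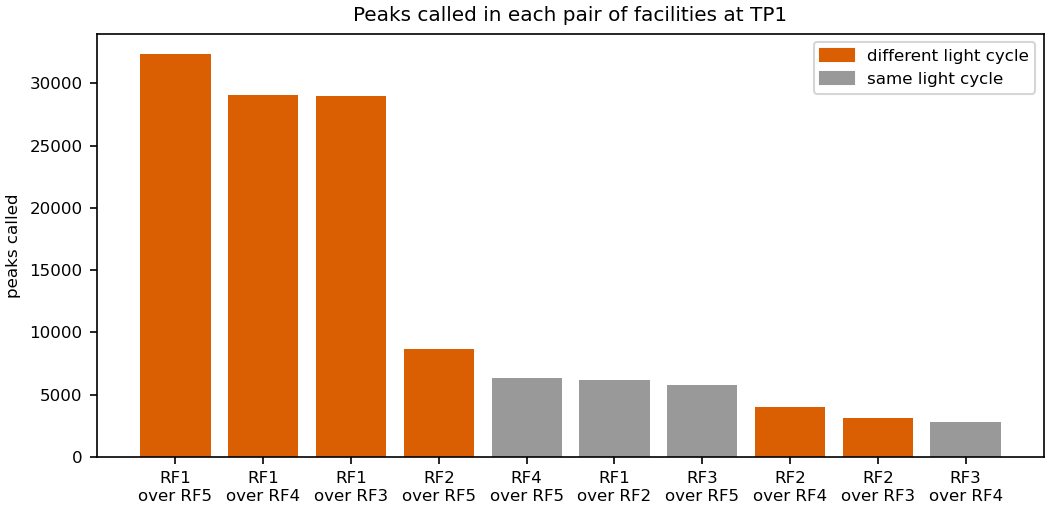
Peaks called in each pair of RFs at TP1 (bars, number of peaks), with pairs of different light cycle in orange and pairs that shared it in grey. The 3 pairs of RF1 with reverse-light RFs reached 28997 to 32375 peaks, and the other 7 pairs 2820 to 8666.

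The contrast followed large parts of chromosomes. Peaks in 1 Mb regions without a protein-coding gene had a median log2 contrast of 0.28, and 21.2% of them were called higher in normal light. Peaks in regions with over 40 genes had a median of -0.22, and 10.8% were called lower. Chromosome X stood highest, with a median of 0.35 and 591 of 2305 peaks called higher and 2 lower, and chromosome 7, which is rich in genes, stood lowest, with a median of -0.26 and 13 of 7700 peaks called higher and 1010 lower. Chromosome X held 1.16% to 1.68% of the counts in normal light and 1.04% to 1.1% in reverse light, without overlap between the libraries. RF1 deviated most along this axis (median deviation from the mean of the RFs 0.30 without genes and -0.24 with over 40), and RF2 deviated by 0.04 and -0.03. Over 2068 regions with at least 20 peaks, the mean contrast correlated with the number of genes at Pearson's r = -0.52 (Spearman's rho = -0.57). Regions of a chromosome share libraries and are not independent.

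**Figure D2:**
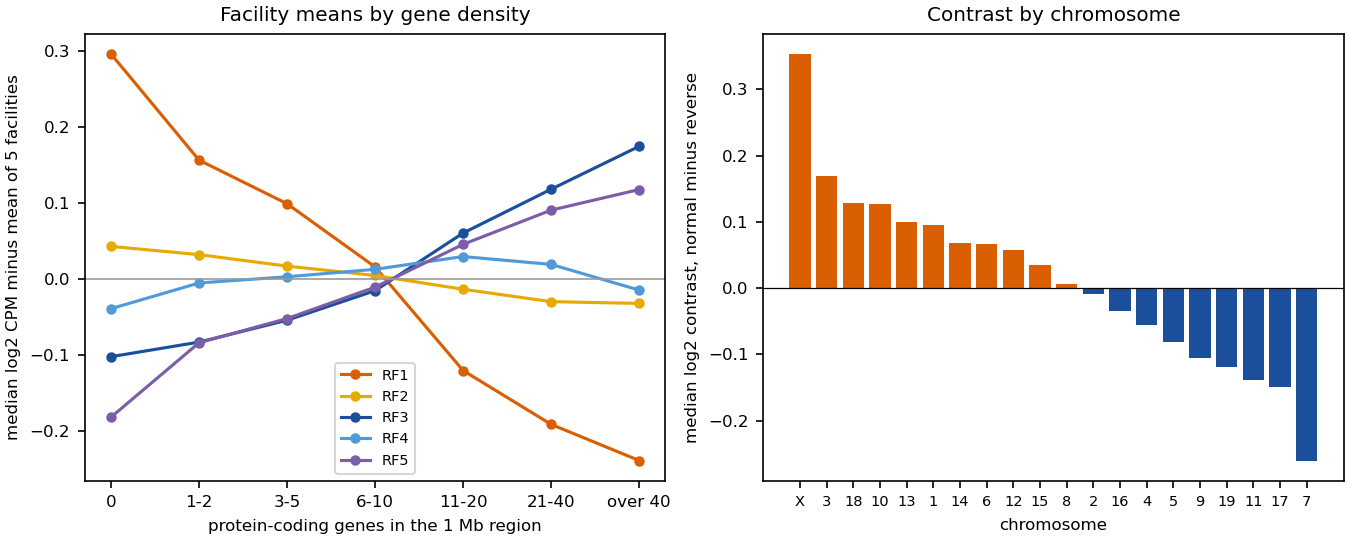
Left, median log2 CPM of each RF minus the mean of the 5 RFs, for peaks grouped by the number of protein-coding genes in their 1 Mb region. Right, median log2 contrast (normal minus reverse light) of the peaks of each chromosome: RF1 runs from 0.30 to -0.24 across gene density, and the chromosomes run from 0.35 (X) to -0.26 (7).

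Among the regions with the highest mean contrast were 2 regions of the histone gene cluster on chromosome 13, a block of genes for the replication-dependent histones. In the region starting at 21 Mb the mean contrast was 0.56 and 40 of 67 peaks were called higher. In the region starting at 23 Mb it was 0.50, with 38 of 63 called higher, and no peak of either was called lower. These regions hold 42 and 53 genes, and so stand apart from the trend over gene density.

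In all 6 pairs of RFs with different light cycles, 316 peaks (0.219%) were called in the same direction, 218 higher (0.151%) and 98 lower (0.0678%) in normal light. Of the 218 higher peaks, 157 lay outside genes (72.0%) and 2 at promoters (0.917%), against 35.4% and 10.8% of all tested peaks. Of the 98 lower peaks, 32 lay outside genes (32.7%), 56 inside (57.1%, against 53.8% of all) and 10 at promoters (10.2%). At 186 of the 316 peaks, no normal-light library overlapped a reverse-light library, which held for 1.34% of all peaks (0.734% with normal light higher and 0.603% with it lower). The 316 peaks were chosen with these same libraries, so the count of 186 follows in part from the choice. After region means were taken out, 59 peaks passed all 6 pairs, 40 of them among the 316. Where libraries of an RF within sampling noise of each other were summed into 1 sample, 126 peaks passed.

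Among peaks with a mean of at least 1 CPM that could be named by the rule, the one with the widest gap between the nearest RF means lay outside genes on chromosome 2 (chr2:53959632-53960324), 123769 bases from Rprm, which encodes a p53-induced inhibitor of the cell cycle. It had 2.43, 3.03 and 4.20 CPM (lowest, median, highest library) in normal light and 0.702, 1.17 and 1.40 CPM in reverse light. Every normal-light library lay above every reverse-light library. The RF means averaged 3.10 ± 0.39 CPM in normal light (SD, n = 2 RFs) and 1.15 ± 0.0738 CPM in reverse light (SD, n = 3 RFs), a log2 contrast of 1.43 ± 0.09 (SE, FDR = 5.8e-19 over libraries and 1.6e-07 over RFs, edgeR).

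A peak inside Etnppl (chr3:130633834-130634636), which encodes a phospholyase of phosphoethanolamine, had 2.27, 2.98 and 3.56 CPM in normal light and 0.768, 0.954 and 1.68 CPM in reverse light. RF1 and RF2 averaged 2.94 CPM each, RF3 stood at 1.41 CPM, and RF4 and RF5 stood at 0.863 and 0.923 CPM. Its log2 contrast was 1.49 ± 0.09 (SE, FDR = 1.9e-19 over libraries, edgeR). The other peaks of this kind that were higher in normal light lay 648211 bases from Cblb, a ubiquitin ligase gene (log2 contrast 1.29), and inside Prps1l3 (1.22).

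The lower peaks with the widest gaps lay inside Otog, a gene of the acellular membranes of the inner ear (log2 contrast -1.01), inside Tap2, which encodes a subunit of the peptide transporter of antigen presentation (-0.89), and 393697 bases from the ribosomal protein gene Rps24 (-0.87). The peak inside Tap2 had 1.3, 2.02 and 2.56 CPM in normal light and 3.13, 3.83 and 4.56 CPM in reverse light, without overlap. A further peak was chosen after its values were seen. It lay 13900 bases from Nr3c1, the gene of the glucocorticoid receptor (chr18:39533321-39534922). It had 2.24, 2.98 and 3.47 CPM in normal light and 3.77, 4.58 and 5.65 CPM in reverse light, a log2 contrast of -0.66 ± 0.07 (SE, FDR = 2.8e-11 over libraries and 0.0020 over RFs, edgeR), and -0.65 with region means taken out.

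**Figure D3:**
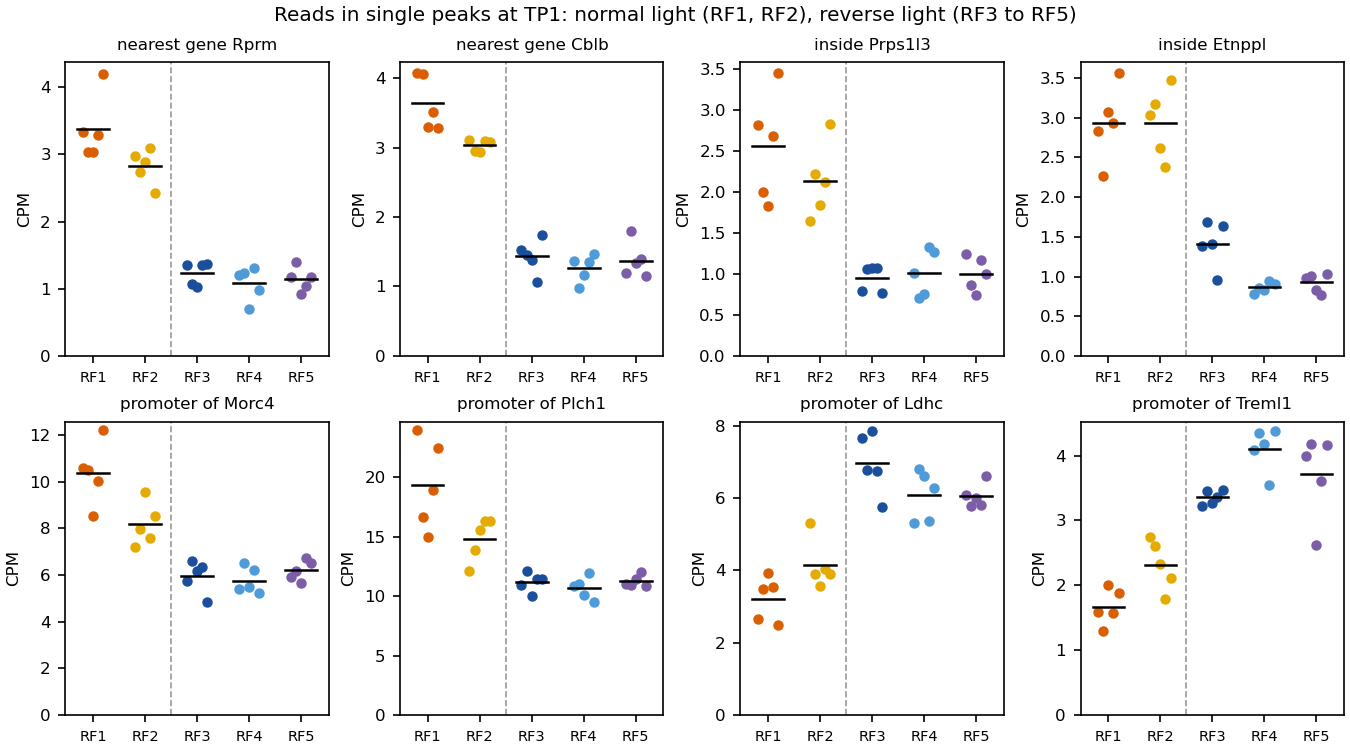
CPM of 8 peaks in the 25 libraries at TP1 (points) with the mean of each RF (lines), normal light left and reverse light right of the dashed line. In the upper row every normal-light library lies above every reverse-light library, and at the promoters of Ldhc and Treml1 the RF means of normal light lie below those of reverse light.

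At promoters (peaks within 2 kb of a start site), 480 of 15196 genes had a peak called higher (3.16%) and 321 a peak called lower (2.11%). Over RFs these were 151 genes (0.994%) and 147 genes (0.967%). The 12 higher and 12 lower promoters with the widest gaps between RF means had mean levels of 1.2 to 13.5 CPM and of 1.04 to 5.29 CPM. Over RFs, 9 of the 12 higher and 10 of the 12 lower had an FDR below 0.01, and Adra1b (0.015), Kcns3 (0.014), Crct1 (0.056), Pkp3 (0.017) and Melk (0.024) did not. Of the 12 higher promoters 6 had no overlap between libraries, and of the 12 lower 5. The promoters were chosen by the gap between RF means, so these counts follow in part from the choice. Over all peaks, 2.6% had an FDR below 0.01 over RFs, 1.34% had no overlap and 0.219% were called in all 6 pairs.

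The higher promoter with the highest level was that of Plch1, a phospholipase C gene, with 12.1, 16.3 and 24 CPM in normal light and 9.50, 11 and 12.1 CPM in reverse light, without overlap. Its log2 contrast was 0.62 ± 0.05 (SE, FDR = 2e-13 over libraries and 0.0014 over RFs, edgeR), and 0.21 with region means taken out. Morc4, which encodes a chromatin ATPase on chromosome X, had 7.21 to 12.2 CPM in normal light and 4.85 to 6.73 CPM in reverse light (log2 contrast 0.62, and 0.13 with region means taken out). Adra1b, an alpha-1 adrenergic receptor gene, had 1.43 to 2.42 CPM in normal light and 0.842 to 1.75 CPM in reverse light (0.63, and 0.46 with region means taken out). Paqr8, a membrane progestin receptor gene (log2 contrast 0.70), and Tbc1d23, a gene of endosome-to-Golgi traffic (0.64), were the higher promoters called in all 6 pairs. The remaining higher promoters were Dsg1a (0.74), Slc17a2 (0.72), Ankub1 (0.75), Frmd7 (0.80), the potassium channel subunit gene Kcns3 (0.53), Crct1 (0.58) and Arxes1 (0.51). With region means taken out, the contrasts of the 12 higher promoters ran from 0.13 to 0.62.

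Of the 12 lower promoters, which were chosen by the gap between RF means, 8 were called in all 6 pairs. Ldhc, the lactate dehydrogenase gene of the testis, had 2.50, 3.72 and 5.30 CPM in normal light and 5.32, 6.28 and 7.85 CPM in reverse light, a log2 contrast of -0.79 ± 0.07 (SE, FDR = 5e-14 over libraries and 4e-04 over RFs, edgeR). Catsperg1, a subunit gene of the calcium channel of sperm, had 1.80 to 3.56 CPM in normal light and 3.63 to 4.55 CPM in reverse light (-0.65). Treml1, a gene of the TREM family of myeloid cells and platelets, had 1.29 to 2.74 CPM in normal light and 2.62 to 4.37 CPM in reverse light (-0.92). Lower promoters also included AU021092 (-0.77), Ccdc30 (-0.69), the prostacyclin receptor gene Ptgir (-0.73), the plakophilin gene Pkp3 (-0.78), Ldc1 (-0.70), the proton channel gene Otop2 (-0.68), the mitotic kinase gene Melk (-0.67) and the urokinase receptor gene Plaur (-0.77). With region means taken out, the contrasts of the 12 lower promoters ran from -0.58 to -0.28. Ldhc (-0.37), Catsperg1 (-0.30), Ptgir (-0.39), Plaur (-0.28), Pkp3 (-0.47), Ccdc30 (-0.46), Ldc1 (-0.47) and Otop2 (-0.41) then lost their calls. Ldhc, Catsperg1, Ptgir, Plaur and Pkp3 lie on chromosome 7, whose peaks had a median contrast of -0.26. The start sites of Dsg1a, Crct1, AU021092 and Pkp3 were set at whichever gene end held the higher count. Their peaks may therefore lie at the far end of the gene and not at its promoter, which was not tested. The peak listed under Pkp3 overlapped another gene, Sigirr, and lay 636 bases from the chosen end of Pkp3. That listed under Dsg1a lay outside the gene, 833 bases from its chosen end.

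No clock gene had a called promoter in the test over all 25 libraries. Without RF2, 4 core clock repressors, 2 modifiers and 1 output factor were called, without RF3 1 repressor and 1 output factor, and without RF5 1 modifier. Over all peaks, 28154 were called without RF2, 12955 without RF3 and 10658 without RF5, against 10859 in the test over all 25 libraries. Of 41 promoter peaks of 37 genes in the 4 clock lists, 34 had a contrast above 0, 23 had an FDR below 0.01 with the higher level in normal light and 2 with the lower, and the contrasts ran from -0.17 to 0.46. At that FDR without a fold limit, 36.2% of all genes with a promoter peak had one higher in normal light and 23.1% one lower. The median was 0.17, against 0.08 over the 8538 promoter peaks with at least 16 CPM, of which 274 were called higher and 4 lower. Of those 8538 peaks, 63.5% had a contrast above 0. With RFs as units, the FDR of the 41 peaks ran from 0.087 to 0.95. RF means did not overlap at 7 of the 41 peaks, all higher in normal light, and that order held for 21.6% of all peaks.

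Among the repressors, Cry1 had 43.1, 50.8 and 64.3 CPM in normal light and 34.5, 38.1 and 43.3 CPM in reverse light (log2 contrast 0.39 ± 0.04 SE, FDR = 5.1e-13 over libraries and 0.16 over RFs, edgeR). Bhlhe41 had 46.7, 53.7 and 63.0 CPM in normal light and 31.6, 42.2 and 47.8 CPM in reverse light (0.41), and Ciart 44.7, 54.9 and 67.7 CPM in normal light and 37.0, 42.0 and 52.3 CPM in reverse light (0.36). The libraries overlapped at all 3 promoters. Bhlhe40 (0.41), Nr1d2 (0.37), Per2 (0.26), Per3 (0.21) and Cry2 (0.14) had overlapping RF means, as had both peaks of Per1 (0.23 and 0.08) and Nr1d1 (0.06).

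Of the activators, Clock had 32.6, 40.4 and 45.6 CPM in normal light and 25.2, 33.5 and 37.7 CPM in reverse light (log2 contrast 0.31), and Arntl differed by 0.04 ± 0.04 (SE, FDR = 0.42, edgeR). Of the output factors, Hlf had 32.0, 36.3 and 45.2 CPM in normal light and 22, 29.1 and 32.6 CPM in reverse light (0.39), whereas Dbp, whose transcript cycles strongly in many tissues, differed by -0.06 ± 0.05 (SE, FDR = 0.28, edgeR). Of 133 peaks in or within 5 kb of the modifiers, 1 was called, against 7.52% of all peaks. It lay inside Zfhx3, a transcription factor gene of the suprachiasmatic clock (chr8:108368916-108369607), with a log2 contrast of 0.86, and was called in all 6 pairs.

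**Figure D4:**
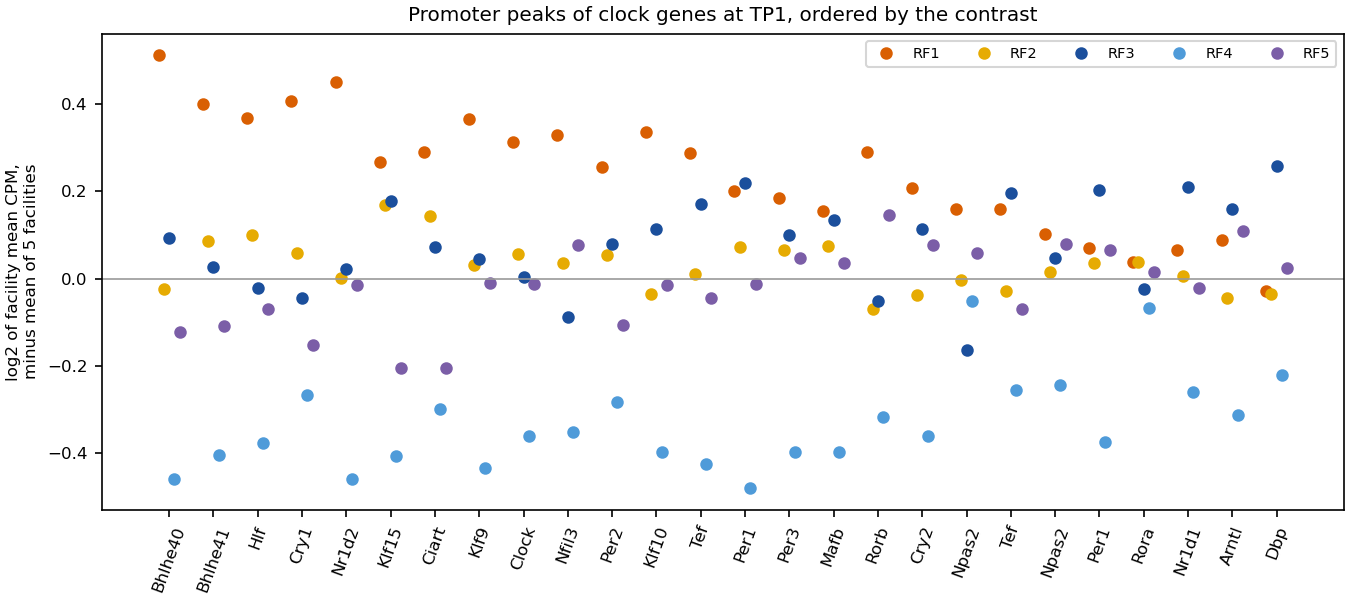
Promoter peaks of the core clock activators, core clock repressors and clock output factors, ordered by the contrast, with the log2 of each RF's mean CPM minus the mean of the 5 RFs. RF1 lies highest at most of them and RF4 lowest, and the contrasts shown run from 0.41 (Bhlhe40) down to -0.06 (Dbp).

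RF4 held 30.5% of its counts at promoters, against 34.0% to 35.7% in the other RFs, and the part of this in the promoter contrasts was not tested. The normal-light libraries held 32.7% to 37.3% of counts at promoters and the reverse-light libraries 29.9% to 36.3% (exact permutation test over 5 RFs, two-sided p = 0.8).

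Lists of neuronal genes are read against the 3.16% of all genes with a promoter called higher and the 2.11% with one called lower. Of 18 ionotropic glutamate receptor genes, 3 were called higher and 0 lower. Among the higher were Gria2, with 49.9, 67.9 and 84.4 CPM in normal light and 35.1, 46.6 and 54.9 CPM in reverse light (log2 contrast 0.52), and Gria3 (0.55). Of 13 GABA-A receptor subunit genes, Gabra2 (0.56) and Gabra6 (0.60) were called higher and Gabrd (-0.52) lower. Of 13 serotonin receptor genes, Htr1a was called higher, with 16.7, 20.5 and 29.6 CPM in normal light and 13, 14.6 and 16.6 CPM in reverse light (0.52), without overlap. With region means taken out, the contrasts of Gria2, Gabra2 and Htr1a were 0.22, 0.26 and 0.10. No gene of the 3 lists was called with region means taken out or without RF1. Htr1a also lost its call without RF4, without replicate 1 or 5 and with a loess offset, and without RF4 the glutamate receptors had 0 called. Gria2 lost its call without replicate 5 and with a loess offset as well, and Gria3 without replicate 1. The call of Gabra2 was lost without RF4 and with a loess offset. That of Gabra6 was lost with a loess offset, without RF3 and without replicate 4, and that of Gabrd without RF5 and without replicate 5. Without RF2, 10 GABA-A and 4 serotonin receptor genes were called, where the calls over all peaks were 28154 in place of 10859. Over RFs, the FDR was 0.083 for Gria2, 0.0087 for Gria3, 0.029 for Gabra2, 0.12 for Gabra6, 0.0065 for Gabrd and 0.011 for Htr1a (edgeR).

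Of 22 genes of DNA methylation and histone deacetylation, 2 were called higher and 0 lower, against 3.16% and 2.11% of all genes. Both calls were lost with region means taken out, without RF1 and without RF4, and that of Tet2 also with a loess offset. Sirt1, an NAD-dependent deacetylase that also acts on clock proteins, had 24.2, 32.2 and 39.8 CPM in normal light and 16.2, 21.6 and 24.7 CPM in reverse light (log2 contrast 0.60 ± 0.04 SE, FDR = 3e-18 over libraries and 0.013 over RFs, edgeR). Its contrast was 0.46 with region means taken out. Tet2, an enzyme that oxidises methylcytosine, had 38.4, 48.1 and 69.9 CPM in normal light and 26.5, 33.7 and 38.8 CPM in reverse light (0.59, FDR = 0.030 over RFs, and 0.18 with region means taken out). Of 21 immediate early genes, 15 glucocorticoid targets, 16 heat shock and cold-inducible genes, 9 neurotrophin genes and 13 photoperiod and melatonin genes with a promoter peak, 0 were called (edgeR); at an FDR below 0.01 without a fold limit, 16, 5, 11, 6 and 4 of them were higher and 0, 1, 0, 1 and 6 lower. Without RF2, 6, 3, 3, 1 and 4 of them were called, where the calls over all peaks were 28154 in place of 10859. The immediate early genes also had 3 called without RF3 or without replicate 4, and 2 without RF5 or with libraries within sampling noise summed. Over all peaks, these settings gave 10503 to 12955 calls.

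Of 9 lists of cell type markers, the RF means of the summed promoter level were apart in 2 and overlapped in 7 (CA1 and CA3 pyramidal neurons, interneurons, oligodendrocyte lineage, astrocytes, vascular cells, neurons of neighbouring regions and pan-neuronal genes, exact permutation test over 5 RFs, two-sided p = 0.3 to 1). Over all single peaks, RF means lay apart at 43.0%, so 2 of 9 lists is no more than that share. The summed promoter level of 12 dentate granule neuron markers averaged 292 CPM in normal light and 227 CPM in reverse light (libraries 243 to 343 and 186 to 257 CPM). The RF means were 326 CPM in RF1 and 258 CPM in RF2, and 243, 190 and 250 CPM in RF3, RF4 and RF5. Of the 12 genes, 11 had an FDR below 0.01 with the higher level in normal light, against 36.2% of all genes with a promoter peak. Calb1, a calcium-binding protein of dentate granule neurons, was called, with 15.3, 19.1 and 30.5 CPM in normal light and 10.1, 12.6 and 15.7 CPM in reverse light (log2 contrast 0.73). Its call was lost without RF1 and with region means taken out. The level of 9 microglia markers averaged 67.3 CPM in normal light and 79.6 CPM in reverse light (libraries 59.9 to 72.4 and 71.8 to 86.4 CPM). Of the 9 genes, 4 were called lower, against 2.11% of all genes: Trem2 (-0.68), Tmem119 (-0.72), and C1qa and C1qc, which share a peak (-0.50) and so are not separate calls. The call of the C1qa and C1qc peak, whose contrast lay at the fold limit, was lost with DESeq2, RLE factors, a loess offset, no replicate block or summed libraries, and without RF1, RF4, replicate 1 or replicate 5. Trem2 and Tmem119 lost theirs only with region means taken out, among the settings run. P2ry12, another microglial gene, had a contrast of 0.34. In the other marker lists, Dcn (0.54, 1 of 13 pyramidal neuron markers) and Adarb2 (0.57, 1 of 17 interneuron markers) were called higher. Of 17 markers of neurons of neighbouring regions, Lef1 (0.69) was called higher and Slc6a4 (-0.56) lower. All 4 calls were lost without RF1. Over all genes with a promoter peak, 3.16% had one called higher and 2.11% one called lower. For the dentate granule and microglia lists the RF means did not overlap (exact permutation test over 5 RFs, two-sided p = 0.1, the smallest possible). Fewer cells of a type and less accessible DNA per cell cannot be told apart in sorted bulk nuclei, and the part of the makeup of the sort in the other contrasts was not tested.

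Few of the calls at TP1 recurred at TP2. Over the same RFs at TP2, 1163 of 144449 peaks were called (0.805%), 693 higher (0.48%) and 470 lower (0.325%) in normal light. The contrast differed between the time points at 23950 peaks (16.6%, interaction, edgeR), and was greater at TP1 at 12667 (8.77%) and smaller at 11283 (7.81%). Of the 6873 peaks higher at TP1, 39 were called the same way at TP2 and 66 the other way, and their median log2 contrast was -0.10 at TP2, against 0.60 at TP1. Of the 3986 lower peaks, 6 were called the same way and 36 the other way (medians 0.12 at TP2 and -0.57 at TP1). Of the 316 peaks called in all 6 pairs, 0 were called the same way at TP2 (edgeR), and the interaction was called at 305. These peaks were chosen by their TP1 values, which also enter the interaction, so the count of 305 follows in part from the choice. The TP2 count was 413 to 4088 without a replicate number and 5239 without RF1 replicates 3 and 5 and RF2 replicate 5. Counted after seeing the data, 13 to 54 of the 6873 higher and 2 to 15 of the 3986 lower peaks were called the same way at TP2 without a replicate number, and 56 and 12 without those 3 libraries, where 533 and 248 were called the other way. Of the 316 peaks, 1 was called the same way without those 3 libraries or without replicate 5, and 28 and 14 the other way. TP2 libraries held 5111223 to 36401717 counts, and the time point cannot be told apart from the sequencing batch.

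Of the 12 higher promoters, 10 had an interaction FDR below 0.01, with Paqr8 and Dsg1a above it, and of the 12 lower promoters all 12. The promoters were chosen by their TP1 values, which also enter the interaction, so these counts follow in part from the choice. Ankub1 was called the other way at TP2 (log2 contrast -0.54 ± 0.14 SE, FDR = 0.0054, edgeR). The peak inside Etnppl had a contrast of 0.56 ± 0.17 at TP2 (SE, FDR = 0.020, edgeR), the highest at TP2 of the named peaks that were higher at TP1. Of the clock genes, Cry1, Clock and Hlf had contrasts of 0.06, 0.02 and 0.03 at TP2, and Dbp, Nr1d1 and Arntl had 0.33, 0.36 and 0.27.

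**Figure D5:**
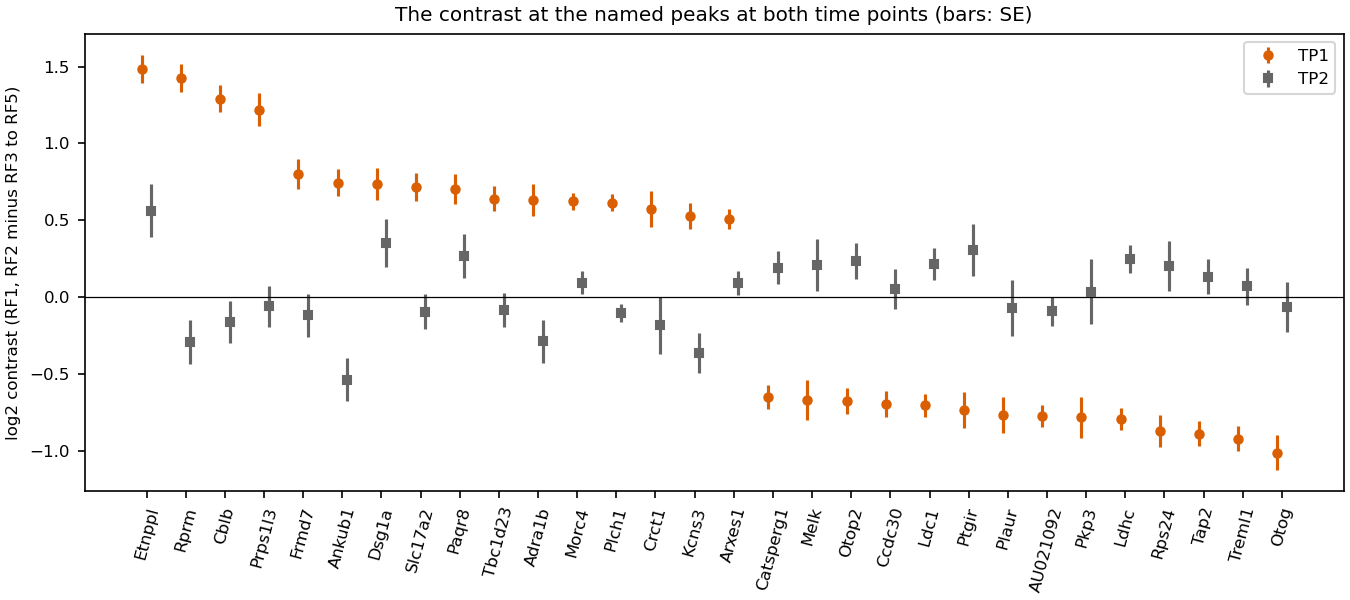
Log2 contrast (normal-light RFs minus reverse-light RFs) with its SE at the named peaks, at TP1 (orange circles) and at TP2 (grey squares). The TP1 values lie at 0.51 and above or at -0.65 and below, and the TP2 values lie between -0.54 and 0.56.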

How the data were processed

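Per the methods of the study, the authors aligned the reads with Bowtie2, marked duplicates with Picard 1.140, called peaks per library with MACS2 2.1.4 and merged them over groups. The deposited raw counts of reads per merged peak (GRCm38) were used, and the deposited peak lists and the table of normalized counts, which holds the same whole numbers, were not. The authors tested these counts with DESeq2. Here, the robust quasi-likelihood test of edgeR 4.0.16 (R 4.3.3) was run on peaks kept by filterByExpr, with TMM factors, in a model of RF and replicate number, with the contrast of the mean of RF1 and RF2 minus the mean of RF3, RF4 and RF5. Counts were also summed per RF and tested over the 5 RFs. The adjusted p-values are those of edgeR. CPM use TMM factors, with a prior count of 2 on the log2 scale, and distances used a pseudocount of 1. DESeq2 1.42.0, limma 3.58.1 and the other alternatives are in the closing section. The fits were tested on simulated data with 20000 peaks. With RF effects of SD 0.15 (log2) added, 45 of 19800 unchanged peaks were called over libraries and 0 over RFs. Of 100 peaks changed by a log2 fold of 0.7, 92 were then called over libraries and 70 over RFs. Without RF effects, 0 unchanged peaks were called over libraries and 0 over RFs. The simulated RF effects were drawn for each peak separately, whereas in the data the contrast followed large parts of chromosomes. The simulation therefore does not give the error rate of either test in these data.

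The light cycle of an RF comes from the study's housing description. Nuclei were sorted in batches with 1 sample of each RF, and the replicate number was taken as the batch, which is an assumption that no label states. Deviations from RF means correlated at 0.0520 on average between libraries of the same number (12 of 50 pairs over 0.1). Of 50 pairs of libraries of the same RF, 7 lay within sampling noise, taken as a variance of 2 times the binomial one, as if each read pair were counted at both ends, with a tolerance of 1.02. Intervals and tests over libraries measure the spread between mice of an RF. Genes and start sites are from RefSeq on GRCm38.p6. For 3110 genes without a start site the gene end with the higher count was used, which was right for 81.5% of 11892 genes that could be checked.

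Named promoters were the 12 higher and 12 lower called promoters with the widest gap between the nearest RF means, at a mean of at least 1 CPM, without predicted genes and olfactory or vomeronasal receptors. The same rule gave 4 peaks of any place in each direction (AU021092 came under both), and called members of 22 gene lists and all core clock genes were added. Members and lists were chosen with earlier results of these data known. Counts include a few genes whose own values are not reported here.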

Additional observations from a re-analysis of the deposited data

Results flagged for a closer look

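The contrast of the light division differed between TP1 and TP2 at 23950 peaks (interaction, edgeR), and at 30 of 32 named peaks with an interaction FDR below 0.01. The named peaks were chosen by their TP1 values, which also enter the interaction, so the count of 30 follows in part from the choice. The difference, TP1 minus TP2 on the log2 scale, was largest among the named peaks at the peak nearest to Rprm (1.72), followed by those nearest to Cblb (1.45) and inside Prps1l3 (1.28) and Etnppl (0.92). At the higher promoters it was 1.28 for Ankub1, 0.92 for Adra1b and Frmd7, 0.89 for Kcns3, 0.81 for Slc17a2, 0.76 for Crct1, 0.73 for Tbc1d23, 0.72 for Plch1, 0.53 for Morc4 and 0.42 for Arxes1. At the lower promoters it was -1.05 for Ptgir, -1.04 for Ldhc, -0.99 for Treml1, -0.92 for Ldc1, -0.91 for Otop2, -0.88 for Melk, -0.84 for Catsperg1, -0.81 for Pkp3, -0.75 for Ccdc30, -0.70 for Plaur and -0.69 for AU021092. At the lower peaks of other places it was -1.07 nearest to Rps24, -1.03 inside Tap2, -0.95 inside Otog and -0.57 nearest to Nr3c1. Its cause was not tested.

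A single library lay far from the other 4 of its RF (Dixon's test) in 11 of 235 groups of 5 libraries, where chance gives about 1 in 20. In RF2, replicate 5 was high at the promoter of Tbc1d23 (3.82 CPM) and replicate 1 at that of Ldhc (5.30 CPM), and replicate 2 held the lowest share of counts in regions with at most 2 genes (11.3%). In RF1, replicate 5 was high at the peak nearest to Rprm (4.20 CPM). In RF3, replicate 4 was low at the promoter of Adra1b (0.842 CPM) and high at that of Ptgir (2.81 CPM), and replicate 1 held the highest share in regions with at most 2 genes (11.3%). In RF4, replicate 4 held the lowest share of counts on chromosome 7 (5.92%). In RF5, replicate 2 was high at the promoter of Ccdc30 (3.24 CPM), and replicate 1 had the highest share in regions with at most 2 genes (11.5%) and the lowest summed level of vascular markers (66.8 CPM).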

How the results depend on the processing

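The number of peaks called over libraries (10859) stayed within 1.5 times under DESeq2, RLE factors, a loess offset, no filter, no replicate block (10933 peaks) and summed libraries. It was 2111 with 1 Mb region means taken out, 3420 without RF1, 28154 without RF2 and 64795 without a fold limit. Without a replicate number it was 7726 to 12980. Called peaks with RF means apart (10298) were 1936 with region means taken out, 3367 without RF1 and 28030 without RF2, and 7237 to 12283 without a replicate number. Peaks called over RFs (3513) were 0 with region means taken out, 4 without RF1, 11393 without RF2, 0 without RF4 (edgeR, 32615 at an unadjusted p below 0.05) and 15212 at an FDR below 0.05 without a fold limit, and 3187 with limma on RF means. Without a replicate number they were 1765 to 4519. Peaks called in all 6 pairs (316) were 59 with region means taken out, 126 with libraries within noise summed, 534 without RF1, 13069 without RF2, 920 without RF3, 659 without RF4 and 563 without RF5, where fewer pairs had to pass, and 145 to 269 without a replicate number. At TP2 the calls (1163) were 5239 without RF1 replicates 3 and 5 and RF2 replicate 5, and 413 to 4088 without a replicate number. The interaction (23950) ran from 18156 to 27057. The share of variation by light cycle (28.6%) was 49.7% in the 10% most variable peaks, 18.3% with region means taken out, and 26.3% to 30.7% without a replicate number. In an alternative added after seeing the data it was 16.4% without RF1, 38.8% without RF2, 30.9% without RF3, 32.7% without RF4 and 30.9% without RF5. The cause of these moves was not tested.

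No named peak reversed its direction. With region means taken out, 18 of 31 fell below the fold limit or above the FDR limit, and without RF1 5 did (Kcns3, Crct1, Morc4, Plch1 and Arxes1). Without the replicate block no call was lost among these 31 peaks, and in the gene lists the number of called microglia markers was 2 in place of 4. No other count of a list moved by over 1.5 times without the block. With 2 RFs against 3, an exact permutation test of a single value cannot go below p = 0.1.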
